A study of Mus musculus with 1203 samples.

Results

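Tuft cells of the mouse colon were compared with other epithelial cells sorted onto the same 4 plates. The 92 tuft cells were selected on their own measured values: a well of plate p2-1, p4-1, p5-1 or p7-1 had to carry the label tuft, have at least 1000 genes above 0, and reach 50 TPM of Trpm5 and 100 TPM of Dclk1. TPM is a transcript's share of a cell's RNA, corrected for transcript length and scaled to a fixed total. The cells came to 35, 26, 22 and 9 cells on the 4 plates in that order. The comparison class was the 51 wells labelled epithelial with at least 1000 genes, 19, 9, 14 and 9 on the same plates. The whole study has 1203 wells, of which 856 reached 1000 genes.

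Each well is the RNA of 1 sorted cell, read with a modified Smart-seq2 protocol, which copies whole polyadenylated transcripts in plates. The mice were females of 11 weeks, and the tissue was colon. The 4 plates carry the genotype label VillinCre;IPMKf/f: Cre driven by the Villin promoter, which is active throughout the intestinal epithelium, with floxed alleles of Ipmk, the gene for inositol polyphosphate multikinase. Both classes compared here therefore share that genotype, and each plate holds both. The tuft label marks cells sorted for the surface proteins EPCAM and SIGLEC-F. How the epithelial wells were gated is not stated in the labels. No label names an animal, so each class counts as 1 sample, no test was made, and every SD below is the spread between 4 plates, which may be technical. The same contrast on the 3 plates labelled wt (p1-1, p3-1 and p6-1) is given beside some values. No plate holds both genotypes, so plate and genotype cannot be told apart.

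Tuft cells are rare chemosensory cells of the gut lining with an apical tuft of long microvilli. They sense luminal metabolites with parts of the taste cell cascade, in which a G protein and phospholipase C release calcium and open the cation channel Trpm5, and they answer with interleukin 25, leukotrienes, prostaglandins and acetylcholine. Their identity depends on the POU factor Pou2f3. Absorptive colonocytes, which carry out salt and water transport, and goblet cells, which secrete mucus, make up most of the remaining colon surface.

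The tuft cells had fewer genes detected than the epithelial wells, a median of 2403 (1018 to 6638) against 3506 (1140 to 6501), and this order held on each plate. The entry for 18S ribosomal RNA held 79.3% of TPM on average in tuft cells and 71.4% in epithelial wells, and mitochondrial genes 2.40% and 6.30%. These gaps came mainly from p2-1, with 80.2% against 61.8% for 18S and 3.03% against 11.8% for mitochondrial genes. On p4-1 and p7-1 the 18S shares were 78.2% against 78.4% and 80.3% against 80.1%, and on p4-1 the mitochondrial share was 1.91% against 1.70%. Read depth cannot be had from TPM, so intervals on shares of cells below (exact Clopper-Pearson, 95%) cover counting error only. A value of 0 means that a gene is listed at 0, since genes that every cell uses were also listed at 0 in some cells: the ribosomal protein gene Rplp0 was above 0 in 77 of 92 tuft cells and 41 of 51 epithelial wells. No 2 columns of these cells were identical, and doublets were not searched for.

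Ipmk, the targeted gene (ENSMUSG00000060733, chr10:71347763-71433327, plus strand, mm10), was present in both classes of these plates. Its plate means in tuft cells were 2.60, 26.99, 1.89 and 1.3 TPM on p2-1, p4-1, p5-1 and p7-1. In epithelial wells they were 34.2, 1.23, 9.41 and 5.85 TPM. The tuft value was lower on 3 plates and higher on p4-1, and the mean difference of -0.77 in log2(TPM + 1) was smaller than its SD of 3.04. Ipmk was above 0 in 17 of 92 tuft cells and in 25 of 51 epithelial wells. The label is therefore used below as a label: whole-gene TPM does not show which exons were read.

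Trpm5 and Dclk1 chose the tuft cells, so their levels describe the choice. Trpm5, the taste cell cation channel, averaged 201.8, 383.8, 288.3 and 237.5 TPM over the tuft cells of the 4 plates, with single cells from 52.5 to 879.4 and a median of 232.1 TPM. Dclk1, a microtubule-binding kinase used as a tuft marker, averaged 478.3, 650.6, 527.95 and 442.7 TPM, with single cells up to 1657 and a median of 439.8 TPM. Of 150 tuft-label wells with at least 1000 genes, 58 were left out. Both levels were missed by 49 of these and the Dclk1 level alone by 9. The highest values below a level among the wells left out were 48.5 TPM of Trpm5 and 78.3 TPM of Dclk1, against 52.5 TPM of Trpm5 and just over 100 TPM of Dclk1 in the lowest chosen cells.

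**Figure D1:**
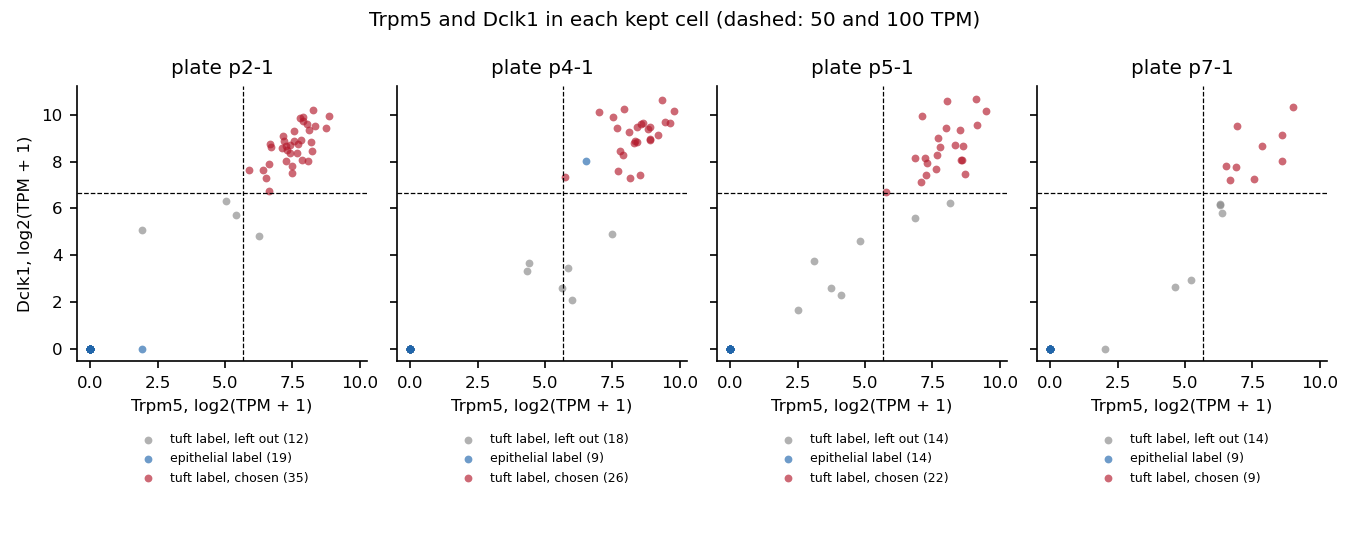
Dclk1 (y axis) against Trpm5 (x axis), both as log2(TPM + 1), in each kept cell of the 4 plates, 1 panel a plate; dashed lines mark 100 and 50 TPM. The 92 chosen cells lie in the upper right corner, most epithelial wells lie at 0 for both genes (hiding left-out wells also at 0), and 1 epithelial well of p4-1 lies among the chosen cells.

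One well labelled epithelial, on p4-1, met both levels, with 91.3 TPM of Trpm5 and 260.04 TPM of Dclk1, and it also had 124.3 TPM of Sh2d6 and 203.9 TPM of Matk. Trpm5 was above 0 in 2 of the 51 epithelial wells and Dclk1 in 1. The label was kept, and this well alone set the epithelial level of several tuft genes on p4-1. With it the p4-1 difference in log2(TPM + 1) was 4.45 for Dclk1, 4.34 for Matk, 3.69 for Sh2d7 and 2.83 for Siglecf. Without it, over 8 wells, these were 9.35, 8.90, 6.92 and 5.53, and the SD between plates dropped from 2.24 to 0.24 for Dclk1 and from 2.23 to 0.31 for Matk. The shares of genes called higher and lower, defined below, were 12.7% and 30.8% with it and 12.9% and 29.9% without it.

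A gene was called higher or lower in tuft cells when its class mean reached 10 TPM over the 4 plates, the difference in log2(plate mean TPM + 1) averaged at least 1 (2-fold), and its sign was the same on all 4 plates. Of 3029 genes at that level, 12.7% were higher and 932 (30.8%) were lower. Counts of called members in each gene list below are to be set beside these shares. The median difference of the 3029 genes was -0.65, so the balance of calls leans to the epithelial side. Plate means of the classes did not overlap for 78.5% of the higher and 71.4% of the lower genes. Genes were called by size and by sign on all 4 plates, which favours separate plate means. These shares therefore describe the calls, and the share over all 3029 genes is not given here. Among higher genes, 28 were listed at 0 in all 51 epithelial wells, and 13 of the lower genes were listed at 0 in all 92 tuft cells. When TPM was rescaled without 18S and mitochondrial genes, 1087 were higher and 1743 lower of 8132 genes. Higher genes then made up 38.4% of calls in place of 29.3%. Rescaling raises the TPM of the remaining genes, so the floor of 10 TPM was less strict there, and its part in these shares was not tested. With rescaling, 95.9% of the higher and 92.1% of the lower calls above were kept, and the median moved by 0.01.

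**Figure D2:**
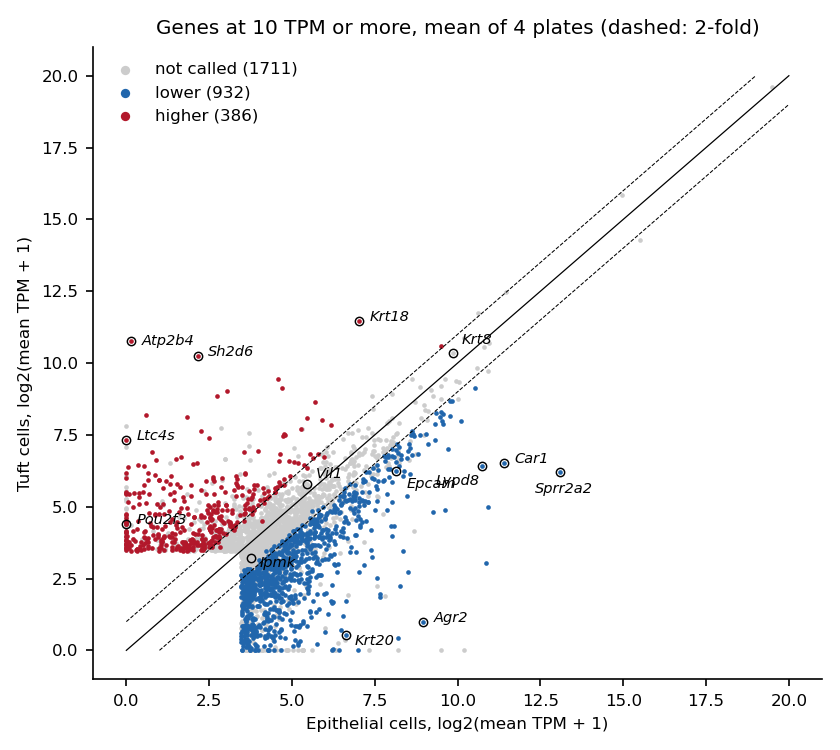
Mean level over 4 plates in tuft cells (y axis) against epithelial wells (x axis), log2(mean TPM + 1), for the 3029 genes at 10 TPM or more; red is higher, blue lower, grey not called, and dashed lines mark 2-fold. Krt18 stands at 2850 against 128.4 TPM and Sprr2a2 at 73 against 8682 TPM, while Krt8 lies within the dashed lines.

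The genes named for the greatest positive differences were Atp2b4, Sh2d6, Dclk1, Matk, Ltc4s, Trpm5, Cdkn1c, Avil, Fabp1, Cd300lf, Sh2d7, Ptpn6, Krt23 and Tuba1a. The differences of these genes ran from 10.10 for Atp2b4 to 5.76 for Tuba1a. Most were found in over 90% of tuft cells. Matk, a kinase that phosphorylates Src family kinases, was above 0 in all 92 tuft cells and in 2 epithelial wells, with a median of 422.5 TPM and plate means of 389.4 to 571.4 TPM. Sh2d6, an SH2 domain protein, had plate means of 527.1, 1687, 1187 and 1469 TPM in tuft cells and was above 0 in 91 of them and in 1 epithelial well. Cdkn1c, an inhibitor of cyclin-dependent kinases, had 81.6 ± 31.7 TPM in tuft cells (SD, 4 plates) and was above 0 in 1 epithelial well, at 2.22 TPM.

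Atp2b4, a plasma membrane calcium pump used as a tuft marker, headed this order, and its level rested on few cells. Its plate means in tuft cells were 1119, 697.8, 570.6 and 4655 TPM. In epithelial wells they were 0.0158, 0, 0.404 and 0 TPM. Yet Atp2b4 was above 0 in 17 of 92 tuft cells (18.5%, 11.1% to 27.9%), 12 of them on p2-1 and 2, 2 and 1 on p4-1, p5-1 and p7-1. The median over all tuft cells was 0, the median over those 17 was 3489 TPM, and the highest cell, at 41891 TPM, held 37.5% of the sum. The largest plate mean, on p7-1, thus came from 1 cell of 9. The top cell held 3.51% of the sum for Matk, 6.53% for Ltc4s and 13.4% for Sh2d6. For Fabp1, above 0 in 27 tuft cells, it held 34.7%, close to Atp2b4. Atp2b4 had the same shape on the plates labelled wt, where 11 of 82 tuft cells chosen in the same way had it (13.4%), at a median of 5028 TPM. When log2(TPM + 1) was averaged over cells in place of TPM, the difference of Atp2b4 dropped to 1.79 and that of Matk became 8.19.

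Breadth of detection separated the called genes further. Of the higher genes, 71.2% were above 0 in at least 50% of tuft cells, and 73 genes in at least 90%. In 22 genes a share of at least 90% in tuft cells went with at most 10% in epithelial wells. Fewer than 25% of tuft cells had the gene in 27 cases, Atp2b4 among them. Fabp1, a fatty acid-binding protein better known from absorptive cells, was listed at 0 in every epithelial well and was above 0 in 27 of 92 tuft cells, with 71.7 ± 31.7 TPM (SD, 4 plates). Among the 932 lower genes, 636 were above 0 in at least 50% of epithelial wells and 58 in at least 90%. A share of at least 50% in epithelial wells went with at most 10% in tuft cells for 71 genes. These shares stand beside fewer detected genes in tuft cells (medians above), and the part of that gap in the lower shares was not tested.

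**Figure D3:**
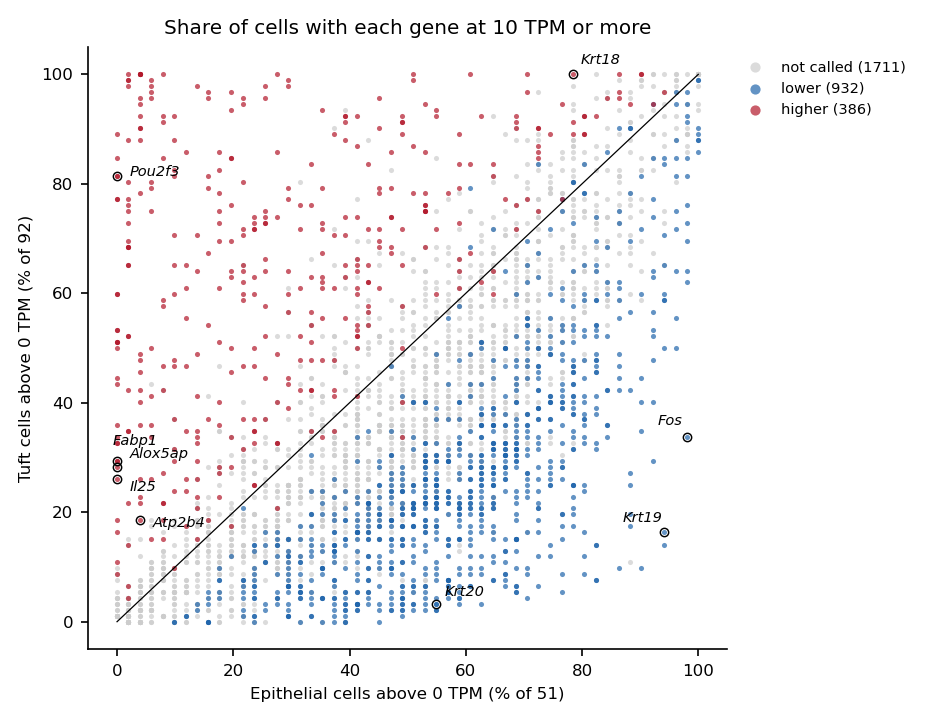
Share of the 92 tuft cells (y axis, %) against the share of the 51 epithelial wells (x axis, %) with a gene above 0 TPM, for genes at 10 TPM or more; red is higher, blue lower, grey not called, and the line marks equal shares. Pou2f3 lies on the left at 81.5% of tuft cells, while Atp2b4, Il25, Alox5ap and Fabp1 were called higher with 18.5% to 29.3% of tuft cells.

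The tuft core list, 35 markers of which 34 reached 1 TPM in a class, had 32 members higher and 0 lower, with a median difference of 4.98 beside -0.30 for the 10413 genes at 1 TPM. Since Trpm5 and Dclk1 chose the cells and are members, and the list was written with these results known, this count describes the choice. The plate medians were 4.93, 4.47, 5.16 and 5.45. The 2 members not called were Gng13, a G protein gamma subunit above 0 in 7 tuft cells, none of them on p4-1, and Inpp5j, an inositol polyphosphate phosphatase with 19.4 against 8.78 TPM and 1 plate of opposite sign.

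Of 17 taste cascade genes, 9 reached 10 TPM, 7 were higher and 0 lower. Trpm5 is among those 7 and chose the cells, so its part of the count describes the choice. Gnat3, the taste G protein alpha subunit gustducin, had 17.45, 7.45, 20.4 and 8.18 TPM in tuft cells and was listed at 0 in every epithelial well. It was above 0 in 49 of 92 tuft cells. Plcb2, the phospholipase C of the cascade, had 33 ± 7.29 against 0.306 ± 0.388 TPM (SD, 4 plates) and was found in 94.6% of tuft cells. Itpr2, an inositol trisphosphate receptor that releases calcium, had 40.4 against 2.87 TPM. Of 11 members at 1 TPM, 10 had a mean difference above 0. Itpr3, another such receptor, stood at -0.12, and Gnb1, a G protein beta subunit, at 0.47. Ffar3, a receptor for short-chain fatty acids, had 42.2 ± 8.46 TPM against 0.0543 TPM and plate means that did not overlap. Sucnr1, the succinate receptor, reached 4.59 TPM in tuft cells, under the 10 TPM asked for, and was above 0 in 9.78% of them.

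Pou2f3, the POU factor on which the tuft lineage depends (ENSMUSG00000032015, chr9:43123939-43210369, minus strand), had 17.5, 25.9, 16.9 and 19.65 TPM in tuft cells and was listed at 0 in all 51 epithelial wells. It was above 0 in 75 of 92 tuft cells (81.5%, 72.1% to 88.9%). Of 18 lineage factors listed, 9 reached 10 TPM, 6 were higher and 1 was lower. Spib, an ETS factor, had 44.2 against 0.412 TPM. The homeobox genes Hmx2 and Hmx3 had 11.9 and 20.9 TPM and were listed at 0 in epithelial wells. Sox9, a factor of crypt progenitors and tuft cells, had 27.45 against 5.69 TPM, and Runx1 had 18.65 against 0.913 TPM. Klf6 was the lower one, at 5.54 against 21.6 TPM. Gfi1b, a repressor used as a tuft marker, reached 9.725 TPM and was listed at 0 in epithelial wells.

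The listed symbols of the Pou2f3 coactivators were not matched, but 2 genes on chromosome 9 are in the table under older symbols, and they were looked up after other values had been seen. 1810046K07Rik, which newer nomenclature calls Pou2af2, had 16.7 ± 3.82 TPM in tuft cells (SD, 4 plates) and was listed at 0 in every epithelial well, with 44.6% of tuft cells above 0. Gm684, named Colca2 in the gene name table, had 0.298 TPM. POU factors of this class bind an octamer, so RefSeq promoter windows (GRCm38.p6, 250 bases before to 50 after each start) were searched for ATGCAAAT on both strands. Copies of these letters on either strand can overlap by 2 bases, and each gene was counted once. The octamer was found in 1.97% of 27025 genes with a window, in 2.10% of the 2145 tested genes with one, in 15 of the higher genes with one (4.97%) and in 10 of 686 lower genes (1.46%). Among the 15 genes of greatest positive difference, 13 had a window and 0 held it. The windows that follow, written 5′ to 3′ on the gene's strand with the octamer or its reverse complement in capitals, belong to 1810046K07Rik and to the 2 tuft core members that held one, Kctd12 and Hpgds. They lie at chr9:51328869-51329168, chr14:102982588-102982887 and chr6:65144681-65144980, all on the minus strand.
1810046K07Rik: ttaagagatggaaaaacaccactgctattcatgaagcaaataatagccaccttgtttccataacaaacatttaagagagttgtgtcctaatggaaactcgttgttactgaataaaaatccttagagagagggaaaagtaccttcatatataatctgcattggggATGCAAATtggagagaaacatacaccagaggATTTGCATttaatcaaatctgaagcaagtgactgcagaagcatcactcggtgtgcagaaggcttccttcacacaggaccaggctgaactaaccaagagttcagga
Kctd12: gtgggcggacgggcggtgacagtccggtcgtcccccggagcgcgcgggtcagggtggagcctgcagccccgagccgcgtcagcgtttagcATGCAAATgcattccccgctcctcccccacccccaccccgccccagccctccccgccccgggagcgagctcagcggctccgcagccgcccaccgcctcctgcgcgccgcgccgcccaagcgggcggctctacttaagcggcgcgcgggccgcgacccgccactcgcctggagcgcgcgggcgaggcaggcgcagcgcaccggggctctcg
Hpgds: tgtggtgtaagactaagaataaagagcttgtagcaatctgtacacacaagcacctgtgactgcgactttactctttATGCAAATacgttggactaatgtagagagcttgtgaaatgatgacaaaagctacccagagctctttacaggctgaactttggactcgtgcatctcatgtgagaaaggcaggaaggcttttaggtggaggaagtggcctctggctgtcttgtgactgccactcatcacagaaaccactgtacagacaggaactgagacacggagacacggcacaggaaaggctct
The window of 1810046K07Rik holds 1 copy on each strand, starting 86 and 55 bases before the start site. The copy starts 160 bases before it in Kctd12, a subunit of GABA-B receptors with 49.2 against 1.16 TPM and also upstream of the start in Hpgds, the haematopoietic prostaglandin D synthase with 20.7 against 0.630 TPM. A match is letters in a window, and binding was not measured.

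Structural genes were mixed. Of 21 brush and cytoskeleton genes, 10 were higher and 3 lower, with a median difference of 1.23. Dclk1, which chose the cells, is among those 10. Avil, an actin-bundling protein of the tuft, had 68, 95.6, 90.35 and 95.45 TPM in tuft cells and at most 0.628 TPM on any plate in epithelial wells. Krt18, an intermediate filament keratin, had 2625, 3284, 3218 and 2275 TPM in tuft cells against plate means of 72.6 to 182.7 TPM, with no overlap. Its partner keratin Krt8 had 1318 ± 195.4 against 926.1 ± 544.9 TPM (SD, 4 plates), with a difference of 0.69 ± 0.98, and was higher on 3 plates and lower on p7-1. Espn and Nebl, which bind actin, and Tuba1a, which builds microtubules, were higher at 205.3, 26 and 198.5 TPM. Vil1, the villin of all microvilli and the source of the Cre promoter, had 53.7 against 42.9 TPM and was not called. Ezr, which ties membrane to actin, was lower at 16.1 against 42.9 TPM.

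The SH2 and leukocyte signalling list had 17 of 25 members at 10 TPM, of which 16 were higher and 0 lower. Ptpn6, the phosphatase SHP-1, had 673.9, 1014, 642.2 and 472.9 TPM in tuft cells against 1.615, 69.6, 16.6 and 4.02 TPM. Cd300lf, an inhibitory receptor of myeloid cells, had 84.4 ± 5.10 against 0.438 ± 0.401 TPM (SD, 4 plates). Inpp5d, the lipid phosphatase SHIP1, had 59.4 against 0.575 TPM, and Plcg2 had 33.8 against 0.510 TPM. Vav1, a guanine nucleotide exchange factor, and Fyb, an adaptor of lymphocytes, had 65.7 and 68.4 TPM. Syk, a kinase of lymphocyte receptors, went the other way at 0.0159 against 3.90 TPM, under 10 TPM in both classes. Ptprc, the leukocyte antigen CD45, had 10.2 against 1.62 TPM and was above 0 in 68.5% of tuft cells.

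Of 14 eicosanoid genes, 6 reached 10 TPM, 5 were higher and 0 lower, and 5 of the 8 at 1 TPM had a mean difference above 0. Alox5, which makes leukotrienes, had 69, 113.2, 104.8 and 76.4 TPM in tuft cells, against 13.7 TPM on p4-1 and 0 on the other 3 plates in epithelial wells. Ltc4s, leukotriene C4 synthase, had 157.7 ± 55.2 TPM (SD, 4 plates), and Alox5ap, the partner protein of Alox5, had 42 ± 37.1 TPM. Both were listed at 0 in all epithelial wells, but Ltc4s was above 0 in 71 tuft cells and Alox5ap in 26. Ptgs1, the constitutive cyclooxygenase, had 43.1 against 0.168 TPM. Lta4h, which makes leukotriene B4, had 1.24 against 8.08 TPM, under 10 TPM in both classes.

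Of 14 type 2 cytokine and receptor genes, 4 reached 10 TPM and 3 were higher. Il25, the cytokine tuft cells send to lymphoid cells, had 10.35, 8.90, 12.5 and 48.75 TPM on the 4 plates and was above 0 in 24 of 92 tuft cells (26.1%, 17.5% to 36.3%). It was listed at 0 in every epithelial well and in the tuft-label wells left out. Il17rb, the interleukin 25 receptor chain, was more even at 20.9 ± 2.40 TPM (SD, 4 plates) and 71 of 92 tuft cells. Il13ra1 had 11.7 against 3.88 TPM. For acetylcholine, 3 of 12 genes reached 10 TPM. Chat, which makes acetylcholine, had 17, 17.5, 14.6 and 10.4 TPM in tuft cells, was above 0 in 84.8% of them and was listed at 0 in every epithelial well, while the choline transporter Slc44a4 was lower at 14.8 against 55.1 TPM.

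Smaller lists had few members at 10 TPM. Both RGS regulators of G protein signalling that reached it were higher, Rgs13 at 35.2 against 0.0404 TPM and Rgs2 at 11.7 against 3.42 TPM. Of 5 neuronal type genes at that level 4 were higher: Kctd12, Nrgn, Nav2 and Tmem176a, the last at 121.8 against 14.85 TPM. Of 9 calcium genes 5 were higher and 1 lower. Atp2a3, a calcium pump of the endoplasmic reticulum, had 274.02 ± 37.7 against 42.5 ± 22.6 TPM (SD, 4 plates) and, unlike Atp2b4, was above 0 in all tuft cells. S100a10 was lower at 28.8 against 113.8 TPM.

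Both sort proteins can be read as RNA. Siglecf, the gene of the tuft gate's marker, had 50.6, 45.1, 80.2 and 39.85 TPM in tuft cells against 0, 5.50, 0.525 and 0 TPM, and 81 of 92 tuft cells had it. Epcam was lower in tuft cells on each plate, with 57.4, 86.9, 91.6 and 61.2 TPM against 229.02, 308.7, 280.2 and 317.5 TPM, a difference of -1.94 ± 0.32 (SD, 4 plates). The protein levels behind the sort are not in these values.

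**Figure D4:**
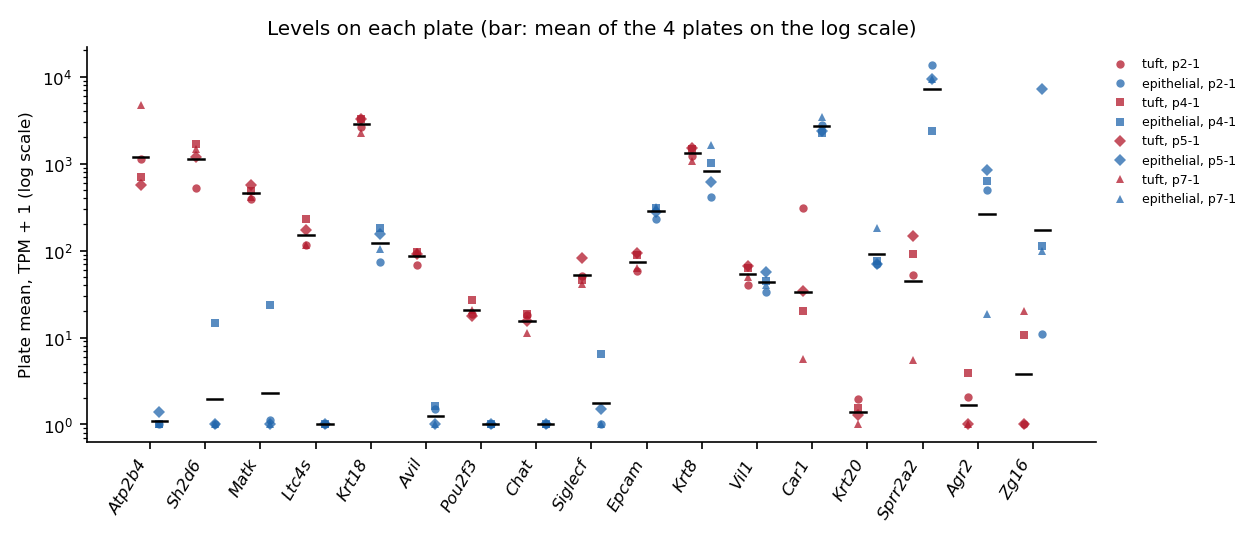
Plate means of 17 genes (x axis) as TPM + 1 on a log axis, tuft cells in red and epithelial wells in blue, with a symbol for each plate and bars for the 4-plate mean on the log scale. Krt18, Avil and Epcam keep the classes apart on each plate, Krt8 and Vil1 overlap, and the epithelial values of Sh2d6, Matk and Siglecf above 1 come mainly from p4-1.

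On the lower side the 15 named genes were Sprr2a2, Agr2, Sprr2a3, Guca2a, Car1, S100a6, Muc3, Wfdc2, Krt20, Klk1, Tff3, Pmp22, Zg16, Ces2c and Mgst1. The differences of these genes ran from -7.36 for Sprr2a2 to -5.22 for Mgst1. Sprr2a2, a small proline-rich protein of surface cells, had 52, 89.6, 145.9 and 4.47 TPM in tuft cells and 13612, 2338, 9390 and 9386 TPM in epithelial wells. Krt20, the keratin of mature colonocytes, had 0.937, 0.563, 0.292 and 0 TPM against 69.3, 74.1, 68.4 and 182.6 TPM. Wfdc2, a secreted protease inhibitor, was listed at 0 in all 92 tuft cells and had 72.7 ± 42.8 TPM in epithelial wells (SD, 4 plates). S100a6, a calcium-binding protein, had 2.91 against 201.4 TPM, and Pmp22 had 0.651 against 88.6 TPM. These 5 did not overlap between classes on any pair of plates. They were named for their large differences in the same plate means, which favours separation. Among all lower genes 71.4% did not overlap.

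Of 20 colonocyte markers, 17 reached 10 TPM, 12 were lower and 0 higher, with a median difference of -4.51. Car1, a carbonic anhydrase of the surface, had 305.2, 18.9, 33.5 and 4.65 TPM in tuft cells and 2791, 2228, 2368 and 3472 TPM in epithelial wells. Muc3, a membrane mucin, had 2.65 against 200.7 TPM, and Slc26a3, the chloride and bicarbonate exchanger, had 1.5 against 45.5 TPM. Guca2a, which encodes guanylin, differed by -4.96, -5.13, -4.55 and -11.90 on the 4 plates, the last against a tuft value of 0 on p7-1. Car4 had 2.70 against 223.7 TPM but was not called, since it was listed at 0 in the epithelial wells of p4-1. All 10 called members of the ion and water transport list were lower, among them Aqp8 at 0.164 against 53.25 TPM and Slc26a2 at 9.37 against 43.2 TPM. Ano1, a calcium-gated chloride channel, was listed at 0 in tuft cells and had 18.8 TPM in epithelial wells. Of 4 carbonic anhydrases at 10 TPM, 3 were lower and 0 higher, beside 30.8% lower among all tested genes. Car2 was among them at 17.4 against 165.6 TPM. Atp1b1, a subunit of the sodium pump, was close in both at 79.7 and 89.8 TPM.

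Of 20 goblet genes, 10 reached 10 TPM, 7 were lower and 0 higher, but their epithelial level rested on few wells. Agr2, needed for mucin folding, had 1.09, 2.89, 0 and 0 TPM against plate means of 17.8 to 847.6 TPM and was above 0 in 21 epithelial wells. Zg16, a mucus lectin, had 10.1, 110.4, 7252 and 97.8 TPM in epithelial wells, where 7 wells held it, 1 of them on p5-1. Tff3, a trefoil peptide, was similar, with 1065 TPM on p5-1 from 1 well and 16.65 to 45.1 TPM on the other plates. Muc2, the main gel mucin, had 1165 against 0.00864 TPM and was not called, since no epithelial well of p7-1 had it. Fcgbp and Clca1 were listed at 0 in all tuft cells and had 127.6 and 84.05 TPM in epithelial wells. The plate medians of the list were -2.0, -4.28, -3.70 and 0.00, a wider spread than for the colonocyte list.

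Panels of marker genes at 10 TPM or more gave the makeup of the classes. At least 3 of 6 tuft markers were reached by all 92 tuft cells and by 1 of 51 epithelial wells, and the panel includes the genes of the choice. At least 3 of 5 colonocyte markers were reached by 26 of 51 epithelial wells (51%, 36.6% to 65.2%) and 2 of 92 tuft cells. At least 3 of 5 goblet markers were reached by 5 epithelial wells (9.80%, 3.26% to 21.4%) and 0 tuft cells. No well of any class reached 3 markers of leukocytes or enteroendocrine cells. At least 1 of 5 leukocyte markers was reached by 26 tuft cells and 1 epithelial well. The B cell, T and NK cell lists summed to at most 0.686 and 0.483 TPM on any plate in tuft cells, and the macrophage list to at most 6.80 TPM. In epithelial wells the highest plate sums of the T and NK cell and macrophage lists were 54.1 and 77.7 TPM. The epithelial class thus holds wells with colonocyte markers and wells with goblet markers, and fewer cells of a type and less RNA per cell cannot be told apart in its means. The part of this mixture in the differences was not tested.

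Keratins and surface genes split by member, with 3 of 16 at 10 TPM higher and 9 lower. Krt18 and Krt23 were higher, the latter at 97.2 against 0.852 TPM, and so was the brush border cadherin Cdhr2 at 61.3 against 26.4 TPM. Krt19 was lower at 28.8 against 783.7 TPM. Among junction genes 7 of 15 were lower, including the claudins Cldn3, Cldn7, Cldn15 and Cldn23. The desmosome gene Dsp was the 1 higher member, at 18 against 4.68 TPM. Among all tested genes 30.8% were lower and 12.7% higher. Cdh1, the cadherin of adherens junctions, differed by -0.93 ± 0.20 (SD, 4 plates), short of 2-fold on average. Of 8 antimicrobial genes at 10 TPM, 3 were lower and 0 higher, near the 30.8% lower among all tested genes. Lypd8, which binds flagella, had 97.3, 61.9, 169.4 and 10.2 TPM against 1670, 436.7, 2269 and 2411 TPM, and Pigr, the receptor that carries IgA, had 22.6 against 132.2 TPM.

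The stem and Wnt target list had a median difference of -0.50, with 6 of 15 members at 1 TPM above 0. Cdca7, Slc12a2 and Myc differed by -2.57, -1.89 and -1.52. Lgr5, the Wnt target that marks crypt stem cells, was higher in tuft cells, with 12.9, 30.7, 19.5 and 84.7 TPM against 2.69, 4.16, 0 and 0 TPM, and was above 0 in 54 of 92 tuft cells against 4 of 51 epithelial wells. Sox9 and Ephb2 were the other 2 higher members of 4 at 10 TPM, and none was lower. Of 5 cell cycle genes at 10 TPM, 3 were lower (Tyms, Mcm3 and Stmn1) and 0 higher, beside 30.8% lower among all tested genes. Cdk1, the mitotic kinase, was listed at 0 in all tuft cells and had 9.32 TPM in epithelial wells.

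Genes of energy and lipid metabolism were mostly lower. Of 24 oxidative phosphorylation genes at 10 TPM, 18 were lower and 0 higher, with a median of -1.81 over the list. Cox4i1, a subunit of cytochrome oxidase, had 215.9, 276.95, 392.1 and 123.7 TPM against 576.3, 839.4, 772.6 and 741.0 TPM, with no overlap. For genes of the mitochondrial genome the median was 0.11 (-0.96 on p2-1), with 1 of 14 higher and 0 lower, while their summed share of TPM was lower in tuft cells on 3 of 4 plates. Of 17 lipid and detoxification genes, 15 were lower, such as Cyp2c55, a cytochrome P450, at 5.6 against 128.03 TPM. The 2 higher ones were Fabp1 and Adh1, an alcohol dehydrogenase with 231.04 ± 105.5 against 71.2 ± 23.8 TPM (SD, 4 plates). Of 24 cytosolic ribosomal protein genes, all at 10 TPM, 14 were lower and 0 higher, with a median of -1.13. The median of all 3029 genes at 10 TPM was -0.65, and 30.8% of them were lower. Shares of cells above 0 were mixed among the genes called lower. Rplp1 had 79.3% of tuft cells against 60.8% of epithelial wells, and Rps18 had 59.8% against 68.6%. Plate medians of the ribosomal list were -1.74, -1.51, -1.34 and -0.30. The median of all 10413 genes at 1 TPM was -0.30, and the part of the fewer genes detected per tuft cell in these medians was not tested.

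Of 13 immediate early genes at 10 TPM, 9 were lower and 0 higher, beside 30.8% lower among all tested genes. The list's plate medians were -1.99, -2.50, -2.47 and -0.17, so the list as a whole was near 0 on p7-1. Fos, which cells switch on within minutes of a stimulus or of handling, had 22.8, 13.2, 19.2 and 85.4 TPM against 142.8, 344.3, 276.1 and 261.8 TPM. It was above 0 in 31 of 92 tuft cells and 50 of 51 epithelial wells. Atf3 and Junb were lower too, at 1.74 against 55.7 and 21.5 against 150.6 TPM. Beside 30.8% lower among all tested genes, 6 of 15 chaperone genes were lower and 1, Hsp90aa1, was higher at 53.3 against 25.8 TPM. Interferon-induced genes had 5 of 12 higher, beside 12.7% of all tested genes, and 0 lower, with a median of 0.93 over the list. Of 20 members at 1 TPM, 14 had a mean difference above 0, while Ifitm3 and Ifitm2 stood at -2.94 and -1.2. On the wt plates 0 members were called higher, and the median was 0.24, or 0.05 without the epithelial wells at tuft levels. Oas2, a sensor of double-stranded RNA, had 16.3, 29.6, 22.4 and 34.1 TPM in tuft cells against 1.39, 1.3, 0.511 and 0 TPM. Irf7 had 119.8 against 74 TPM and was not called. Class I MHC genes had 2 of 10 lower, a smaller share than among all tested genes, and 0 higher, and H2-K1 and B2m differed by -0.21 and -0.01. Of 12 inositol phosphate and phosphoinositide genes at 10 TPM, 5 were higher (Inpp5b, Inpp5d, Plcb2, Plcg2 and Pik3cg) and 2 lower (Plcb3 and Ppip5k1). Of 3 gasdermins at that level 2, Gsdmc2 and Gsdmc4, were lower. Both lists stand beside 12.7% higher and 30.8% lower among all tested genes.

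**Figure D5:**
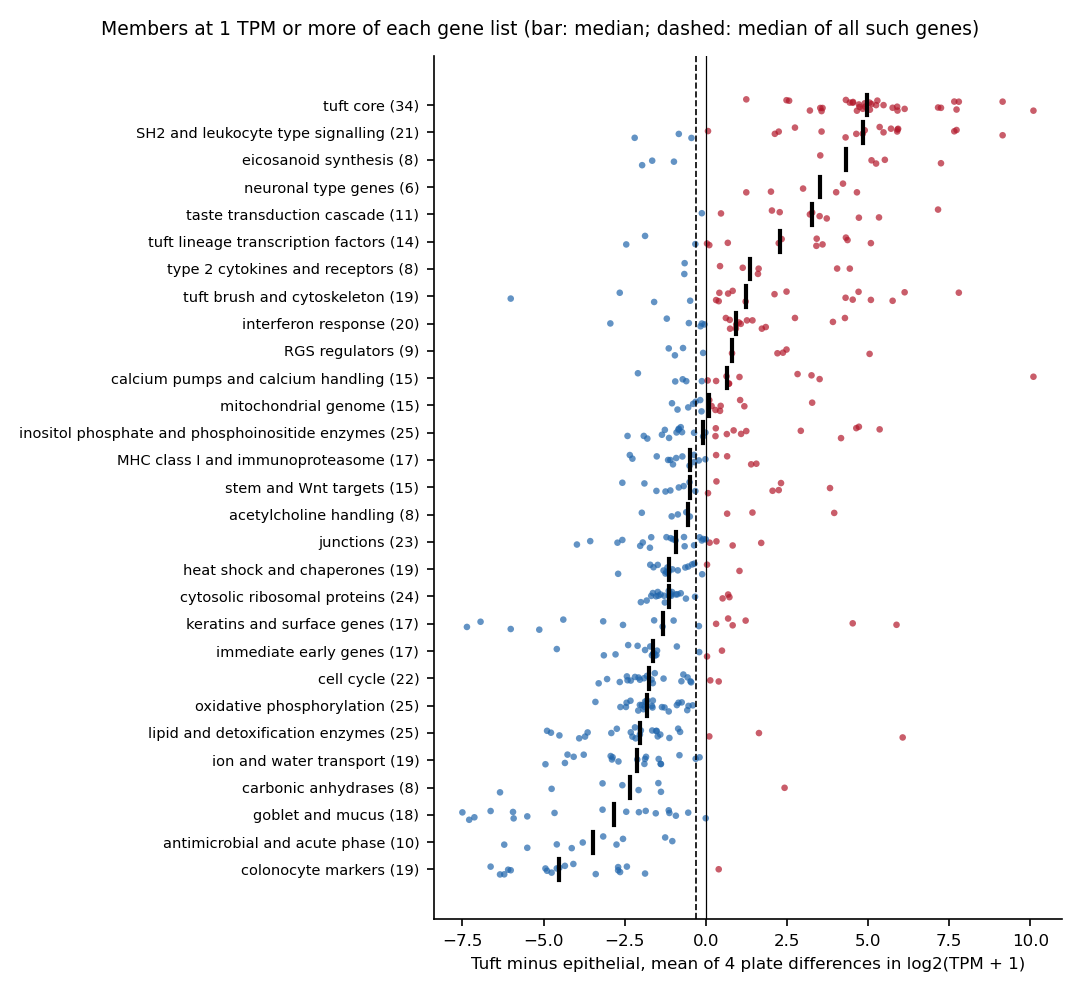
Differences between tuft cells and epithelial wells (x axis, mean of 4 plate differences in log2(TPM + 1)) for the members at 1 TPM or more of each gene list with at least 6 such members (y axis, number in brackets); red is above 0, blue below. Black bars mark list medians, from 4.98 for the tuft core to -4.51 for colonocyte markers, and the dashed line marks -0.30, the median of all 10413 such genes.

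The 58 tuft-label wells left out by the levels were closer in level to the epithelial wells than to the chosen tuft cells for many of these genes. Their means were 2551 TPM of Car1, 80.2 TPM of Krt20 and 183.5 TPM of Epcam, with 212.3 TPM of Krt18 and 3.31 TPM of Siglecf. At least 3 colonocyte markers were reached by 24 of these wells and at least 3 tuft markers by 12. With these wells counted as tuft cells, 7.46% of tested genes were higher in place of 12.7% and the colonocyte list's median was -1.35 in place of -4.51.

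On the 3 plates labelled wt, the same choice gave 82 tuft cells and 39 epithelial wells, and 18 of those 39 wells met the Trpm5 and Dclk1 levels themselves. There, 5.96% of 3304 tested genes were higher and 799 (24.2%) lower. Of the genes higher above, 97 (25.1%) were called higher on the wt plates as well, and 84.2% had a mean difference above 0 there. Of the 932 lower genes, 41.3% were called lower and 92.9% had a mean below 0. Not all of these genes reached 10 TPM on the wt plates: of the 932 lower genes, 726 did. The share of all tested genes with each sign on the wt plates is not given here. These percentages therefore describe the called genes only. The median of the tuft core list was 1.48 on the wt plates and 4.12 once those 18 wells were left out, beside 4.98 here. For Krt18 the wt difference was 1.46 and, without those wells, 4.13. No difference between genotypes was tested.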

How the data were processed

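The deposited values are TPM per gene and well, which the authors estimated with RSEM 1.3.3 over Bowtie2 2.4.2 on mm10, per the submitters' processing notes. The annotation release, strand setting and read depth are not stated there. Depth is lost in TPM, and RSEM splits reads between near-identical genes such as Sprr2a2 and Sprr2a3, whose values are uncertain. Of the table's columns, 38 matched no labelled sample and were not used. No doublet caller was run.

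For each plate and class the mean TPM was taken, and differences were taken as log2(mean TPM + 1) per plate, which understates changes of low genes, then averaged over the 4 plates with their SD. The text names members of 38 gene lists and the 15 genes with the greatest difference in each direction among those called, the latter without mitochondrial genes, predicted or clone-named genes and pseudogenes. Some genes that this rule names are not reported here. Members and lists were chosen with earlier results of these data known. Gene positions are from GENCODE M21 (GRCm38), which matched 46005 of 46517 IDs. The alternatives were other pseudocounts, floors, tuft levels, gene minimums, averages and scalings, and leaving out each plate. Python 3.11.15, numpy 2.4.6, pandas 2.3.3 and scipy 1.17.1 were used. The calculation was run on simulated wells with known folds. Those wells had no zeros in expressed genes, no plate effects and no mixture of cell types. The run therefore checks the arithmetic and cannot speak to calls that rest on few cells.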

Additional observations from a re-analysis of the deposited data

Results flagged for a closer look

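Single plates stood far from the other 3 in 6 genes. Chance flags about 1 in 20 groups of 4. The number of genes screened is not given here, so the 6 cannot be set against that rate. On p4-1 the difference in log2(TPM + 1) was 4.45 for Dclk1, against 8.79 to 9.05 on the other plates. It was 2.83 for Siglecf against 5.35 to 5.74, 4.34 for Matk against 8.43 to 9.16, and 3.69 for Sh2d7 against 6.46 to 6.87. Without the 1 epithelial well at tuft levels, the p4-1 values of these 4 genes were 9.35, 5.53, 8.90 and 6.92. Guca2a differed by -11.90 on p7-1, where its tuft value was 0, against -5.13 to -4.55 elsewhere. Zg16 differed by -12.82 on p5-1, where 1 epithelial well held it, against -3.47 to -2.29.

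Of all genes called here (12.7% higher and 30.8% lower of 3029), 16 had the opposite sign on all 3 wt plates. Ppip5k1, an inositol pyrophosphate kinase, is 1 of these 16, picked from a screen of all called genes. Plate and genotype cannot be told apart. It was lower in tuft cells on all 4 plates here, from -1.87 to -0.21 with a mean of -1.13, and higher on all 3 plates labelled wt, from 1.47 to 2.66 with a mean of 2.13. Without the epithelial wells at tuft levels the wt mean was 1.63. The difference between genotypes was not tested.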

How the results depend on the processing

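As reported, 12.7% of tested genes were higher and 30.8% lower, and the medians of the tuft core, colonocyte and goblet lists were 4.98, -4.51 and -2.81. With a pseudocount of 0.1 TPM the medians were 7.23, -5.96 and -5.17. With 10 TPM, 7.3% were higher and 17.5% lower, and the medians were 2.56, -2.16 and -1.36. Averaging log2(TPM + 1) over cells gave medians of 4.45, -2.59 and -0.78, and turned Rplp1 from -1.13 to 0.17. With every well of the tuft gate, 7.46% of tested genes were higher and the medians were 4.26, -1.35 and -1.44. Rescaling without 18S and mitochondrial genes gave 13.4% higher and 21.4% lower of 8132 tested genes, and a tuft core median of 6.62. A floor of 1 TPM gave 8.56% and 16.9% of 10413 genes, and a floor of 50 TPM gave 12.2% and 40.9% of 640 genes (78 higher), with tuft core and goblet medians of 5.90 and -5.93. Pooling cells over plates gave a goblet median of -5.45. Where no construction is named, the cause was not tested. Leaving out each plate in turn gave 13.3% to 17.1% higher and 31.4% to 35.1% lower, and medians of 4.75 to 5.10, -4.87 to -3.86 and -3.91 to -2.75. Of 3216 values of single genes under the alternatives, 2761 moved by less than the SD between plates and 1 changed sign. Which genes were recomputed is not given here. A called gene has the same sign on every plate, so leaving out a plate or changing the pseudocount or floor cannot change its sign. For called genes, the count of sign changes therefore says nothing about those settings. No paired analysis was possible because the labels give no number that ties a tuft well to an epithelial well, and the classes were compared within plates only. Read depth is unknown, so a value of 0 sets no limit on a gene's level.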

Other observations

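Genes outside the lists, chosen after their values were seen, included secreted and chromatin proteins among those higher in tuft cells. Agt, the angiotensin precursor, had 59.4 ± 13.9 against 0.999 ± 1.68 TPM (SD, 4 plates) and was above 0 in 91.3% of tuft cells. Fcna, a ficolin that binds microbial sugars, had 52.7 against 0.443 TPM, and Sct, which encodes secretin, had 43.8 against 0.301 TPM with 34.8% of tuft cells above 0. Dnmt3a, a DNA methyltransferase, had 25.6 against 2.62 TPM.

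Among the lower genes, chosen in the same way, were the following. Nr3c2, the mineralocorticoid receptor, had 0.842 ± 0.578 TPM in tuft cells against 36.6 ± 11.9 TPM in epithelial wells (SD, 4 plates), a difference of -4.37 ± 0.54. Hsd11b2, which shields the receptor from glucocorticoids, had 2.255 against 71 TPM, and Sgk1, a kinase the receptor induces, had 1.42 against 67.1 TPM. Nlrp6, an inflammasome sensor, had 0.475 against 18.5 TPM, and Pycard, an inflammasome adaptor, had 5.57 against 45 TPM, while Casp1 and Gsdmd of the same pathway were not called, with differences of -2.81 ± 2.09 and -0.98 ± 1.44. Glul, glutamine synthetase, had 4.92 against 52.2 TPM.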
